A study of Mus musculus with 6 samples.

Results

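Actin and the proteins that turn its filaments over were followed in the deep cerebellar nuclei of mice trained in eyeblink conditioning. The members are 10 genes fixed by name: the actin genes Actb and Actg1, the profilin genes Pfn1 and Pfn2, the cofilin genes Cfl1 and Cfl2, the destrin gene Dstn, the gelsolin gene Gsn, the kinase gene Limk1 and the nucleation factor gene Wasf1. Every probe set whose annotation named only 1 of these genes was taken, 32 of the 36899 probe sets on 3 array designs. They comprise 14 gene probe sets, 12 of them on design A and 1 each on designs B and C, and 18 quality-control measurements of Actb, from 6 control probe sets that each design carries. The member genes are 10 of the 15964 genes with a probe set of their own.

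The paired group was male C57BL/6 mice aged 11 to 18 weeks that heard a tone of 352 ms and received a shock beside the left eye of 100 ms, which began 252 ms into the tone and ended with it, over 7 days. The unpaired group was the same in strain, sex and age and received the same tones and shocks apart from each other in a pseudorandom order, also over 7 days. All mice of both groups carried implanted eyelid wires and a headstage. Tissue centred on the anterior interpositus nucleus, on the side of the trained eye, was taken with syringe needles 10 to 30 min after sacrifice and pooled from 10 to 15 nuclei. Each group was measured on 1 array of each design, and the labels name no second pool of a group. There is therefore no test and no p-value, and a difference below describes these arrays.

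Actin monomers add to the growing end of a filament, where profilin helps to deliver them, and the cofilins and destrin sever and disassemble older filament. Gelsolin cuts and caps filaments when calcium rises, LIM kinase switches cofilin off by phosphorylation, and the WAVE protein made from Wasf1 starts new branches through the Arp2/3 complex. In neurons this cycle is known for shaping dendritic spines and growth cones, and actin is also abundant in glia and vessel walls.

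By their gene probe sets, most of the member genes had a slightly lower signal in the paired pool, as did 51.0% of all measured genes. None except Actb was more than 1.5-fold apart. The 9 control readings of the Actb transcript, at far brighter signals, were all higher in the paired pool, so the lower value of Actb rests on its 2 gene probe sets, both suffixed. Signals are the deposited log2 values, and a log2 ratio is paired over unpaired after a small shift that sets the median of the brighter probe sets of a design to 0. A probe set counts as measured when its mean signal reached the median of its design, which 12 of the 14 gene probe sets did, at least 1 for every member gene. Of these 12, 8 were lower and 4 higher in the paired pool, with a median log2 ratio of -0.17 and a range of -0.93 to 0.29. Over all 18351 measured probe sets the median was 0 and the SD 0.19. The members' median was -0.11 under quantile scaling and -0.060 over the 8 probe sets in the brightest 25% of their design.

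**Figure D1:**
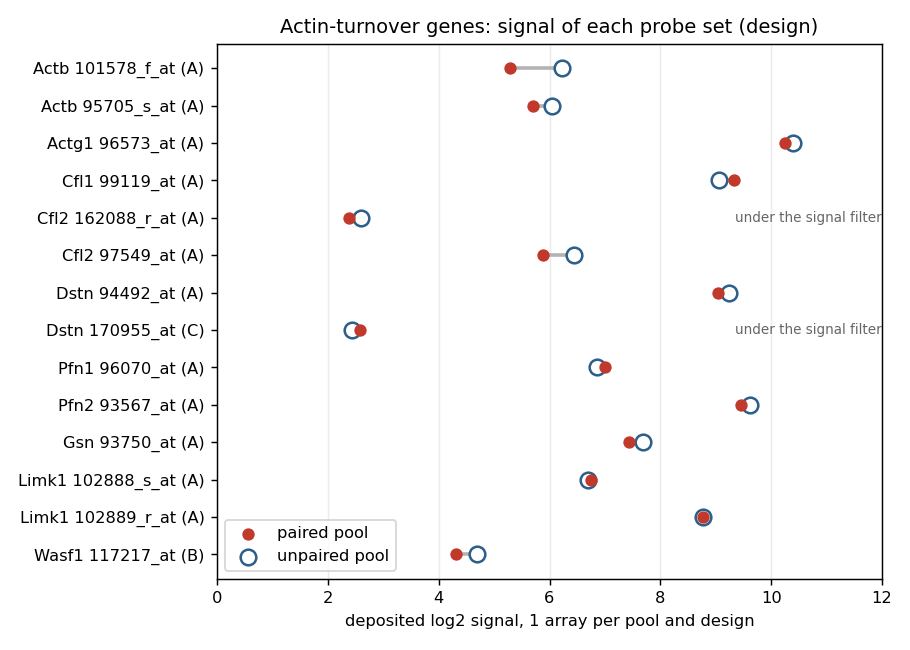
Deposited log2 signal (horizontal axis) of the 14 gene probe sets of the 10 member genes, with the array design in brackets. Filled points are the paired pool and open points the unpaired pool, 1 array each. The probe set of Actb at the top has the widest gap, 5.28 in the paired and 6.23 in the unpaired pool.

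Past 1.5-fold was 1 of the 11 measured member probe sets of design A, on the lower side, and 0 on the higher side. Over all measured probe sets of that design, 0.338% were past 1.5-fold lower and 0.242% higher. The 1 member probe set of design B lay within 1.5-fold, where 0.29% of that design's probe sets were past it on the lower side and 0.532% on the higher.

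The cytoplasmic actins are the filament subunits of every cell. Actb was read by 101578_f_at on design A with a log2 signal of 5.28 in the paired pool, against 6.23 in the unpaired pool. The log2 ratio was -0.93, or 1.91-fold lower, and 0.0322% of the measured probe sets of the design, this one included, were as far from 0. In rank, it was brighter than 57.3% of the design's probe sets in the paired pool and 72.6% in the unpaired pool. The other Actb probe set, 95705_s_at, had 5.69 in the paired and 6.04 in the unpaired pool. Its log2 ratio was -0.34, and 8.00% of measured probe sets were as far from 0. Both carry a letter suffix, which for these marks probes shared with related sequences, and the actins form a family of near-identical transcripts. The mean of both log2 ratios was -0.64, and the probe set of higher rank alone gave -0.34.

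Actg1, the other cytoplasmic actin gene, had a log2 signal of 10.24 in the paired and 10.40 in the unpaired pool on 96573_at, which has no suffix. It ranked above 99.1% and 99.2% of probe sets. The log2 ratio of -0.14 was within the SD of the design, and 40.8% of measured probe sets were as far from 0. The Actg1 signal thus lay near the top of the array in both pools and changed little in rank.

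Muscle actin genes, fixed as the first group of the wider actin pathway, are known for their expression in smooth, skeletal and heart muscle. Actg2, of smooth muscle, had 5.50 in the paired and 5.28 in the unpaired pool on 93102_f_at, a log2 ratio of 0.23. Actc1, of heart muscle, had 6.51 in the paired and 6.38 in the unpaired pool on 101029_f_at, a log2 ratio of 0.15. Each of these genes also had another probe set, which lay at the floor in both pools and gives no ratio. Actg2 and Actc1 therefore each rest on the measured probe set alone. Both measured probe sets carry the same suffix as the Actb probe set at -0.93, yet their ratios lie on the other side of 0. How much of their signal came from other actin transcripts was not tested. Acta1 and Acta2 had no probe set above the signal filter.

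Actin promoters are known for CArG boxes, the sites bound by serum response factor, whose coactivator is held back by free actin monomer. The promoter windows of RefSeq (build GRCm38.p6, 250 bases before to 50 after the start site) covered 9 of the 10 member genes, Actb apart. A CArG box lay in 1 of these 9 genes, Actg1, and in 3 of the 4 actin genes covered, against 1.81% of the 27025 genes in the table. Of the wider pathway's genes it lay in 4 of 81, a count that includes the muscle actin genes Acta1 and Actc1 again. Of all 32851 promoters it lay in 1.63%. The box reads as a box on both strands, and a match is a description of the letters in the window. The sequence around each box is shown, with the box in capitals, so that the box can be compared between these actin genes. It starts 90 bases before the start site in Actg1, 73 in Acta1 and 47 in Actc1.
Actg1, chr11:120348551-120348610, minus strand: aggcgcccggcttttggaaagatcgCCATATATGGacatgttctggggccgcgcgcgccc
Acta1, chr8:123894814-123894873, minus strand: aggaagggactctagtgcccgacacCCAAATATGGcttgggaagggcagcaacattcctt
Actc1, chr2:114052888-114052947, minus strand: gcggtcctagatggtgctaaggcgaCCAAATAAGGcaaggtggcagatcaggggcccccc
Of these box-bearing genes, Actg1 had a log2 ratio of -0.14 and Actc1, on its suffixed probe set, of 0.15. Acta1, under the signal filter, had 3.56 in the paired and 3.44 in the unpaired pool. The ratios of Actg1 and Actc1 lay on opposite sides of 0, each within the SD of the design. That of Actc1 rests on 101029_f_at alone.

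The profilins bind actin monomers and feed them to growing ends. Pfn1, the form found in most cells, had a log2 signal of 7.00 in the paired and 6.85 in the unpaired pool, a log2 ratio of 0.16. Pfn2, the form typical of neurons, had 9.46 in the paired and 9.62 in the unpaired pool, a log2 ratio of -0.15. Their log2 ratios were 0.31 apart in opposite directions. Each lay within the SD of the design, with 36.7% and 38.0% of measured probe sets as far from 0.

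Among the filament-severing proteins the cofilins stood on opposite sides. Cfl1, the main cofilin outside muscle, had 9.33 in the paired and 9.05 in the unpaired pool. The log2 ratio of 0.29 was the highest of the 12 measured gene probe sets of the members, and 11.9% of measured probe sets were as far from 0. Cfl2, a cofilin best known from muscle, had 5.88 in the paired and 6.44 in the unpaired pool on 97549_at. Its log2 ratio of -0.55, or 1.47-fold lower, lay just inside the 1.5-fold threshold, and 0.837% of measured probe sets were as far from 0. The log2 ratios of Cfl1 and Cfl2 differed by 0.84. A second Cfl2 probe set, 162088_r_at, had 2.37 in the paired and 2.60 in the unpaired pool, both at the floor set for low signals, and gives no ratio. Cfl2 therefore rests on a single probe set. With that floored probe set averaged in as a ratio of 0, the Cfl2 mean was -0.28.

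Dstn, the actin depolymerizing factor of the same family, had 9.05 in the paired and 9.23 in the unpaired pool on design A, a log2 ratio of -0.18. Another Dstn probe set, 170955_at on design C, lay under the signal filter with 2.57 in the paired and 2.44 in the unpaired pool, a log2 ratio of 0.14. The probe set that measured the gene was lower in the paired pool by less than the SD of its design. The Dstn mean was -0.10 under quantile scaling and -0.017 with the dim probe set averaged in.

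Gsn, which cuts and caps filaments and is abundant in oligodendrocytes of adult brain, had 7.43 in the paired and 7.69 in the unpaired pool. The log2 ratio was -0.25, and 17.8% of measured probe sets were as far from 0. Of 8 measured oligodendrocyte marker genes 6 were also lower in the paired pool, with a median log2 ratio of -0.070 and a range of -0.22 to 0.053. The mean signal of their probe sets was 8.55 in the paired and 8.59 in the unpaired pool on design A. It was 8.86 and 8.91 on design B, and 5.63 and 5.92 on design C. Fewer cells of a type and less RNA per cell cannot be told apart in pooled tissue, and the part of these cells in the Gsn value was not tested.

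Limk1, the kinase that inactivates cofilin, was nearly level. Its probe sets had 6.74 in the paired and 6.70 in the unpaired pool on 102888_s_at, and 8.78 and 8.76 on 102889_r_at. The log2 ratios were 0.053 and 0.024, and 75.5% and 89.5% of measured probe sets were as far from 0. Both Limk1 probe sets carry a suffix, and they gave nearly the same ratio.

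Wasf1, the WAVE protein gene of neurons, was read only on design B. It had 4.31 in the paired and 4.68 in the unpaired pool, a log2 ratio of -0.37, and 7.04% of that design's measured probe sets were as far from 0. It ranked above 49.8% of probe sets in the paired and 57.1% in the unpaired pool, close to the signal filter.

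**Figure D2:**
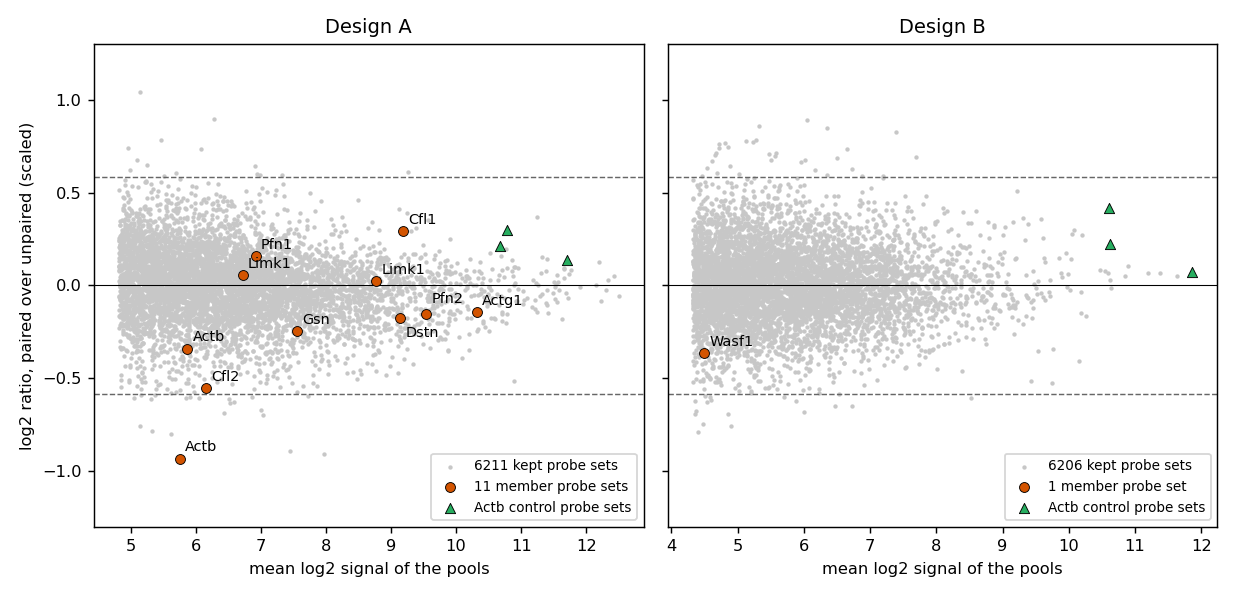
Log2 ratio, paired over unpaired (vertical axis), against mean log2 signal (horizontal axis) for designs A and B. Grey points are the measured probe sets of the design, orange points the members, green triangles the Actb control probe sets, and dashed lines mark 1.5-fold. One Actb probe set lies under the lower line at -0.93, Cfl2 lies just above it at -0.55, and the Actb controls lie above 0.

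Actb was also read by control probe sets placed at the 3' end, the middle and the 5' end of its transcript, and these went the other way. At the 3' end the log2 signal was 11.77 in the paired and 11.64 in the unpaired pool on design A, 11.90 and 11.83 on design B, and 12.13 and 11.93 on design C. In the middle it was 10.77 in the paired and 10.57 in the unpaired pool on design A, 10.81 and 10.40 on design B, and 11.19 and 10.91 on design C. At the 5' end it was 10.93 in the paired and 10.64 in the unpaired pool on design A, 10.72 and 10.51 on design B, and 11.31 and 10.97 on design C. All 9 of these readings were higher in the paired pool, none past 1.5-fold.

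The mean log2 ratio of the Actb controls in the middle was 0.31 ± 0.10 (SD, n = 3 designs). The 3' control averaged 0.14 ± 0.068 and the 5' control 0.29 ± 0.063. These SDs are over array designs, and with no second pool of a group named they give no measure of the spread between pools of mice. Under quantile scaling the means were 0.27 at the 3' end and 0.43 in the middle. The suffixed Actb probe set at -0.93 and the controls are annotated to the same deposited sequence of the gene, and on design A the controls gave 0.14, 0.21 and 0.30. Among the brightest 5% of each design, between 2.58% and 66.5% of probe sets had a ratio as far from 0 as a single control value.

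Each control has a partner of opposite strand, which should not bind the labelled Actb transcript. The partners had log2 signals of 3.86 to 5.13 in the paired and 3.58 to 5.34 in the unpaired pool. Their log2 ratios were higher in 6 and lower in 3 of 9 readings, from -0.20 to 0.51, with means of -0.041 ± 0.14 for the 3' partner, 0.26 ± 0.26 for the middle and 0.16 ± 0.29 for the 5' partner (SD, n = 3 designs). The opposite-strand readings varied more between designs than those of the transcript strand at each of the 3 positions.

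**Figure D3:**
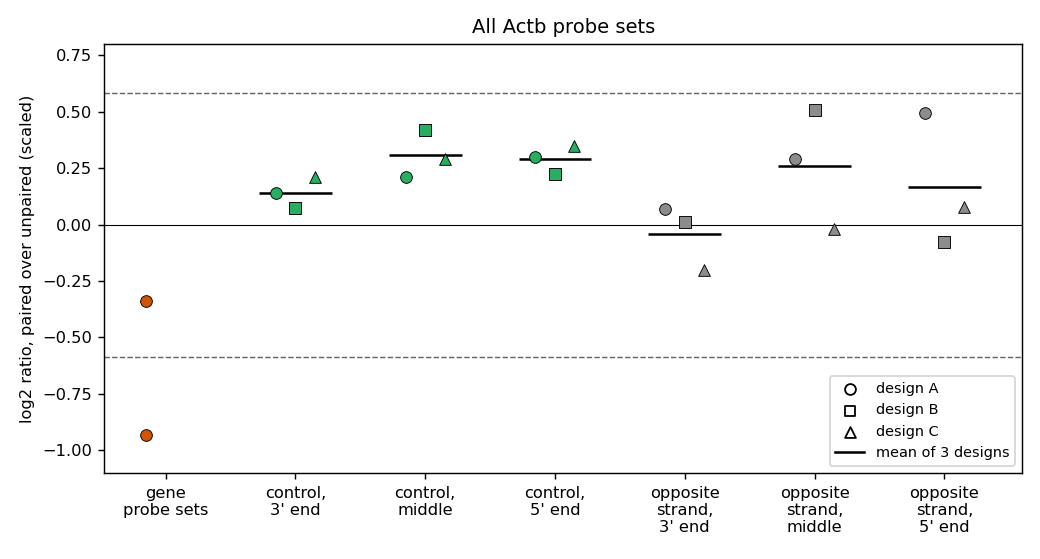
Log2 ratio, paired over unpaired (vertical axis), of all Actb probe sets: the gene probe sets of design A, the control probe sets by position, and their opposite-strand partners. Symbols give the design, bars the mean of 3 designs, and dashed lines 1.5-fold. The gene probe sets lie at -0.93 and -0.34 and all 9 transcript-strand controls between 0.073 and 0.42.

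Among the other control transcripts some were higher in the paired pool and others lower. Gapdh, a glycolytic enzyme gene, was higher in the paired pool in 9 of 9 transcript-strand readings, with a median log2 ratio of 0.15. Its opposite-strand partners were also higher in 9 of 9, with a median of 0.21. Pcx, the pyruvate carboxylase gene, was higher in 9 of 12 readings. Tfrc, the transferrin receptor gene, was higher in 5 of 9 readings and lower in none, the rest lying at the floor with no ratio, with a median of 0.012. The 18S ribosomal RNA was lower in 9 of 9, with a median of -0.61. The bacterial RNAs that serve as hybridization controls were lower in 27 of 27, with a median of -1.76 and a range of -2.18 to -0.65. Their part in the Actb control ratios was not tested.

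The gap between the 3' and the 5' control of Actb, a common check of how complete the labelled transcripts are, was smaller in the paired pool on each design. The 3' minus 5' log2 signal was 0.84 in the paired and 1.00 in the unpaired pool on design A, 1.17 and 1.32 on design B, and 0.82 and 0.96 on design C. The difference between the pools was -0.15 ± 0.0097 (SD, n = 3 designs), and -0.073 under quantile scaling. It was -0.34 ± 0.094 for Pcx, -0.057 ± 0.11 for Gapdh and 0.069 ± 0.11 for Tfrc. Smaller gaps in the paired pool on all 3 designs were therefore seen for Actb and Pcx and not for Gapdh and Tfrc. The 5' control of Tfrc had a mean log2 signal over the designs of 2.47 in each pool. The floor was 3.28 on design A, 3.15 on design B and 2.25, slightly under that mean, on design C. The Tfrc gap therefore cannot show how complete its transcripts were. What part transcript completeness has in the member ratios was not tested.

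**Figure D4:**
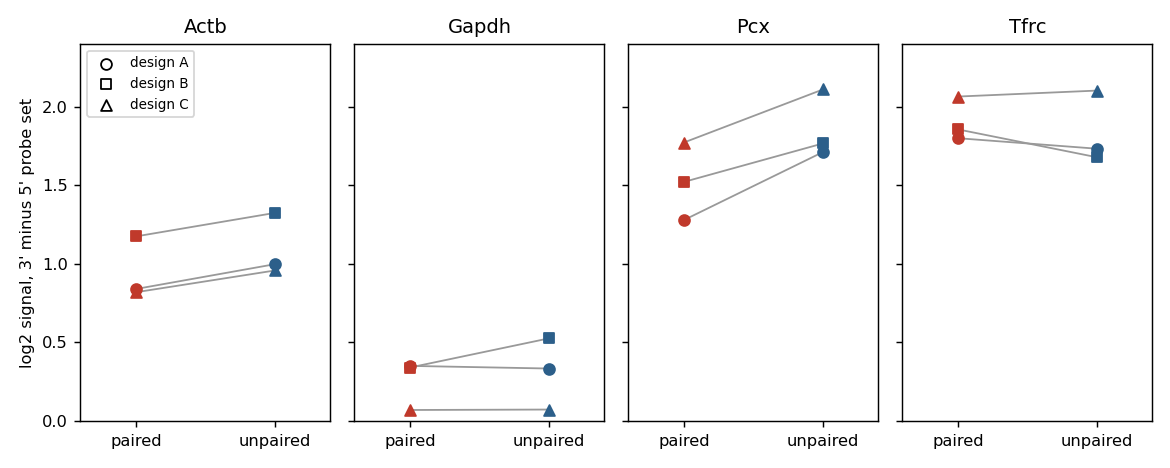
Log2 signal of the 3' control probe set minus that of the 5' one (vertical axis) in the paired and the unpaired pool, for 4 control transcripts. Symbols give the design and lines join the pools. For Actb and Pcx the paired value lies under the unpaired one on all 3 designs.

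The wider actin pathway was taken as 105 further genes in 8 roles, of which 92 had probe sets and 74 were measured. Of these 74, 43 were lower and 31 higher in the paired pool, with a median log2 ratio of -0.034 and a range of -0.35 to 0.49. Over all 10579 measured genes, 51.0% were lower and the median was -0.0039. No gene of the list was past 1.5-fold in either direction by the mean of its probe sets. Among all measured genes 0.199% were past it on the lower side and 0.189% on the higher, so a count of 0 among 74 is near that background. The list's median was -0.0024 over 92 genes with no signal filter and -0.065 over the 53 genes with a probe set in the brightest 25%.

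Most measured genes for the nucleation of branched filaments had a slightly lower signal in the paired pool, as did 51.0% of all measured genes. The medians of these roles lie within the SD of 0.17 over all measured genes. Of 9 measured WASP and WAVE genes 7 were lower, with a median of -0.12. Wipf1, a WASP partner, had 5.42 in the paired and 5.74 in the unpaired pool, a log2 ratio of -0.30. Wasf3, a relative of Wasf1, had probe sets at -0.44 and 0.11. Of 5 genes of the Arp2/3 complex 4 were lower, with a median of -0.11. Its subunit gene Actr3 had 8.20 in the paired and 8.47 in the unpaired pool, a log2 ratio of -0.25, and Arpc2 had 8.21 and 8.46, a log2 ratio of -0.24.

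Straight filaments are built by formins and Ena/VASP proteins. Their role in the list also holds other nucleator genes, Cobl and Spire1. Of its 11 measured genes 6 were lower, with a median of -0.046. The formin gene Daam1 was higher on each of 3 probe sets, at 0.028, 0.53 and 0.93. The last of these was past 1.5-fold as a single probe set, while the gene's mean of 0.49 was not. Evl, of the Ena/VASP family, had probe sets at -0.50 and -0.085. The probe sets of Daam1 and those of Evl agreed in direction and not in size. Other genes of this role had probe sets on both sides of 0.

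Monomer binding and disassembly genes were 8 higher and 5 lower of 13, with a median of 0.0061. Coro1a, a coronin gene of immune cells, had 6.23 in the paired and 5.87 in the unpaired pool, a log2 ratio of 0.37. Pfn4, a profilin gene, had 3.46 and 3.81, a log2 ratio of -0.35, on a suffixed probe set. Capping and severing genes were 3 higher and 7 lower of 10, with a median of -0.045. The adducin gene Add3 was higher on 3 probe sets, at 0.15, 0.45 and 0.49. Capza2, a capping protein subunit gene, had 7.53 in the paired and 7.79 in the unpaired pool, a log2 ratio of -0.26.

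Cross-linkers, tropomyosins and spine actin binders were 6 higher and 9 lower of 15, with a median of -0.037. Actn1, an actinin gene, had 4.89 in the paired and 5.23 in the unpaired pool on its measured probe set, a log2 ratio of -0.33. The tropomyosin gene Tpm4 had 7.04 and 6.76, a log2 ratio of 0.29.

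**Figure D5:**
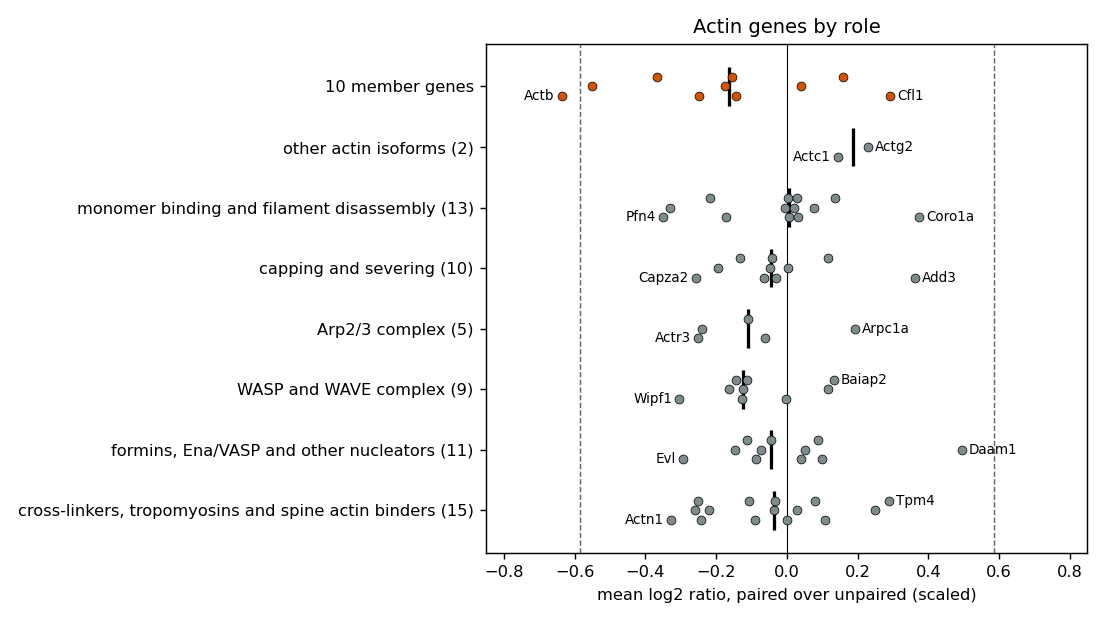
Mean log2 ratio, paired over unpaired (horizontal axis), of the 10 member genes and of the measured genes of the wider pathway in the roles described, with their number in brackets. Points are genes, black bars medians, dashed lines 1.5-fold, and the lowest and highest gene of each role are named. Only Actb, at -0.64, lies past a dashed line. That value is the mean of its gene probe sets at -0.93 and -0.34 and leaves out its 9 control readings, all higher in the paired pool.

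Since actin is made by every cell, markers of the cell types in the tissue are given beside it. Of the markers listed for deep nuclear neurons 8 of 10 were measured. Pvalb, a calcium buffer, ranked above 99.99% of the probe sets of design A in both pools. How much of its signal came from other cells of the pool was not tested. The median log2 ratio of these markers was -0.050, with 3 of 8 higher, and Vamp1, a vesicle protein gene, had probe sets between -0.016 and 0.41. Granule cell markers were 5 higher of 6, with a median of 0.37 and Zic1 at 0.31 and 0.38. Gabra6, a GABA receptor subunit gene of granule cells picked after its values were seen, was past 1.5-fold at a mean of 0.89 over probe sets at 0.73 and 1.04. Purkinje cell markers were 5 higher of 6, with a median of 0.095, Pcp2 at 0.094 and -0.078 and Gad1 at -0.41. Most listed markers of these cells of the cerebellar cortex were therefore measured, while Cbln3 and Neurod1 of the granule cell list lay under the signal filter. How much cortex the pools held was not tested.

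For astrocytes and Bergmann glia the marker median was -0.11, with 3 of 8 higher, Gfap at -0.26 and -0.29 and Slc1a2 between -0.22 and 0.22. Microglia markers had 0.051, with 4 of 6 higher and C1qc at 0.074 and 0.25. Vascular markers had -0.083, with 1 of 4 higher and Cldn5 at -0.37. Among the oligodendrocyte genes Mbp had -0.084 on its measured probe set, and Mobp lay between -0.18 and 0.13 over 7 probe sets. The part of any of these cell types in the member ratios was not tested.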

How the data were processed

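Total RNA of pooled nuclei of each training group was labelled with biotin (15 ug of cRNA per the labels' protocols) and hybridized to 3 array designs, 6 arrays in all. The deposited values, processed by the authors, are read as log2 signals: the base is inferred from their range (1.40 to 12.53 without controls), and how they were summarized or normalized was not given in the sources used here. Precision is limited by the number of arrays.

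Within each design (66 control probe sets apart) the brighter probe sets, those with a mean signal not under the median, had median log2 ratios of -0.010 on A, -0.0084 on B and -0.0067 on C, and each was subtracted from that design's ratios. A floor was set at the 25th percentile, and the same brighter probe sets were kept. Printed signals are as deposited. Genes came from the platform annotation, updated with RefSeq of GRCm38.p6; a gene's value is the mean over its kept probe sets. Steps were tested on simulated data with Python 3.11.15. Named genes were all members with every probe set, the actin controls, in each pathway role the up to 2 genes with the largest absolute mean ratio, and of each marker list the up to 2 with the highest signal rank. C1qa, Cbln1 and Flt1 of these are not described, and 1 pathway role is not reported here by itself, though its genes are in the totals. The members and lists were chosen with earlier results of these data known.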

Additional observations from a re-analysis of the deposited data

How the results depend on the processing

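Member results were recomputed with no scaling, quantile or loess scaling (span 0.3), no floor or one at the median, the filter dropped or raised to the 75th percentile, without suffixed probe sets, with the brightest probe set per gene, and on designs A and B alone. On design C no member probe set passed the filter. Of 115 recomputed log2 values 105 moved by less than the spread, taken as the SD over designs for the controls and otherwise as the SD of all kept log2 ratios over the square root of the number averaged. Of 38 recomputed counts past 1.5-fold 35 stayed within 1.5 times the original. Most of them were 0 against an original 0, and the count of lower member probe sets stayed in 7 of 10 settings. No direction of a member gene's mean turned in 85 values. Many of these equalled the original because the setting did not touch the gene's probe sets. A gene with no probe set left in a setting gave no value. The count of member probe sets past 1.5-fold lower was 0 with the raised filter, without suffixed probe sets and on design B alone, because the Actb probe set at -0.93 left the set. The members' median was -0.11 under quantile scaling, -0.060 with the raised filter and -0.37 on design B, where Wasf1 stands alone. The pathway median was -0.0024 with no filter and -0.065 with the raised one. Quantile scaling gave Actb controls of 0.27 at the 3' end, 0.43 in the middle and -0.073 for the 3' minus 5' difference, and the cause was not tested. No paired analysis was possible because each group has 1 array on each design.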
